A study of Mus musculus with 6 samples.

Results

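Regulatory T cell genes were described as 10 gene symbols, Foxp3, Ikzf2, Ctla4, Il2ra, Tnfrsf18, Tnfrsf4, Icos, Il10, Ccr8 and Lrrc32, each matched by its symbol to 1 of the 57180 rows of the count table. All 10 were found, and 8 of them passed the filter on low counts and were among the 16989 genes tested; Il10 and Ccr8 did not. The study sequenced bulk polyadenylated RNA of 6 lung samples, and every mouse in both groups had been exposed to cigarette smoke. 3 came from animals with the genotype label WT (wild-type) and 3 from animals with the label FTO_OE, which overexpress FTO, an RNA demethylase that acts on N6-methyladenosine. The comparison asked which lung transcripts differed with FTO overexpression under smoke. The labels give no strain, age, sex, length of exposure, promoter or cell type of the overexpression. Nor do they state whether the libraries are from different mice, so p-values measure the spread between these samples, which may be technical. Unexposed lung was not analysed here.

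Regulatory T cells are a CD4+ lineage that restrains other lymphocytes, and the transcription factor FOXP3 defines them. They carry the high-affinity chain of the interleukin-2 receptor, deprive antigen-presenting cells of costimulation through CTLA-4, and can release the cytokine IL-10 and activate TGF-beta held on their surface by GARP, the product of Lrrc32. Most of the other genes on the list are not confined to them: activated helper and cytotoxic T cells also use Icos, Ctla4, Il2ra, Tnfrsf18 and Tnfrsf4, innate lymphoid cells use several of these receptors, and endothelium and platelets use Lrrc32. In whole lung RNA, fewer cells of a type and less RNA per cell cannot be told apart.

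The fitted fold changes of the 8 tested members ran from 0.870 (Lrrc32) to 2.21 (Icos), and members were not tested against each other. Icos and Ctla4 were about 2-fold higher in FTO-overexpressing lungs, with all 3 libraries above all 3 wild-type libraries. Foxp3 was at about the same mean level in both groups. It was lowest, at 5.22 estimated counts, in the overexpressing library where Icos and Ctla4 were highest. The interval of the Foxp3 fold change, 0.371 to 2.73, included the values of Icos (2.21) and Ctla4 (2.08). A difference between Foxp3 and these 2 genes is therefore not shown. No member passed an edgeR adjusted p of 0.05 (0 of 8 tested), where 0.0942% of all genes did. Without adjustment, 2 of 8 were higher at an edgeR p under 0.05 and 0 were lower, beside 5.77% and 3.67% of all genes (9.44% in either direction). The median log2 fold change of the 8 was 0.16, and that of all genes tested was 0.0069. DESeq2 and limma-voom also called 0 members after adjustment.

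The start-site windows of Ctla4, Tnfrsf18 and Foxp3, members with fitted fold changes of 2.08, 1.69 and 1.01 that each missed adjustment, are shown to set them side by side at the sequence level. Of the 10 members, 6 had an entry in the RefSeq promoter set of build GRCm38.p6, each window reaching from 250 bases before to 50 bases after a start site; Ikzf2, Icos, Il10 and Lrrc32 were not matched. All windows shown are on the + strand and are written 5′ to 3′: Ctla4 at chr1:60908775-60909074, Tnfrsf18 at chr4:156026072-156026371, and Foxp3 at chrX:7579426-7579725 (site 1) and chrX:7580233-7580532 (site 2). Capitals mark GGAAA on the given strand or TTTCC, the same letters on the other strand, which form the core recognised by NFAT factors of T cell receptor signalling.
Ctla4: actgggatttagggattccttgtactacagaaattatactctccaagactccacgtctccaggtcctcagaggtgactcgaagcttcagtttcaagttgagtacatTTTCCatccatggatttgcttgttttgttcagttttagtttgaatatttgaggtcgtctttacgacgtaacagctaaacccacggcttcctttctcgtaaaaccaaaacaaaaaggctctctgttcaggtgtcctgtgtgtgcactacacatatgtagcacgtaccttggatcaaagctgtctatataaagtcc
Tnfrsf18: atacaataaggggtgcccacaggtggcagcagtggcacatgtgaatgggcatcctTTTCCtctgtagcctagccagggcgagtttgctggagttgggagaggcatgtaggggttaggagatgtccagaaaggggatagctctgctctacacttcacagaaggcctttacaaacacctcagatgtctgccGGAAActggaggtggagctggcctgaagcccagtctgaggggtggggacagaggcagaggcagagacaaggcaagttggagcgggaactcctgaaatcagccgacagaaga
Foxp3 site 1: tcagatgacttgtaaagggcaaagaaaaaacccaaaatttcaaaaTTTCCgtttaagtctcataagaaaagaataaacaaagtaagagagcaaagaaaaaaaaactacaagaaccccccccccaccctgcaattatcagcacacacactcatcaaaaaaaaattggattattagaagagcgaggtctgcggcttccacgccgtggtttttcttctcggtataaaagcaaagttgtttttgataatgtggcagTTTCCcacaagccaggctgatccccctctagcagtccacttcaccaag
Foxp3 site 2: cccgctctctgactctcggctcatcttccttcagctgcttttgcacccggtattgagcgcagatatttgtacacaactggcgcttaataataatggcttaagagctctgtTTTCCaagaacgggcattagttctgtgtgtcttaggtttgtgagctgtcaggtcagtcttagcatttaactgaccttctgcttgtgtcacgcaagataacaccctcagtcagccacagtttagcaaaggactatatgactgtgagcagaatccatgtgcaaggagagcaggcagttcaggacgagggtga
The core occurred 1 time in the Ctla4 window, 2 times in that of Tnfrsf18, and 2 times and 1 time in the Foxp3 windows. It is common: 61.3% of all 32851 windows of the same length held it at least 1 time.

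Foxp3, the lineage factor, was close to the limit of detection. Its estimated counts were 9.06, 21.0 and 17.31 in wild-type replicates 1, 2 and 3 and 27.29, 17.12 and 5.22 in FTO-overexpressing replicates 1, 2 and 3. After scaling for library size these were levels of 0.488, 1.103 and 0.935 CPM (counts per scaled library size) in wild-type and 1.37, 0.967 and 0.231 CPM in overexpressing lungs. The groups overlapped completely, with the highest and the lowest library both overexpressing. The exact Poisson 95% interval of the highest, replicate 1 (0.904 to 2.00 CPM), lay above that of the lowest, replicate 3 (0.0749 to 0.538 CPM). These libraries were picked as the extremes and the intervals used rounded estimates, so a difference beyond counting error was not tested. The means were 0.842 ± 0.318 and 0.856 ± 0.579 CPM (SD, n = 3 each). The fitted fold change was 1.01 with a 95% interval of 0.371 to 2.73 (edgeR adjusted p = 0.998), so that neither a rise as large as that of Icos nor a fall of the same size lay outside it. Its sign depended on single libraries: the log2 value was 0.47 without overexpressing replicate 3 and -0.53 without overexpressing replicate 1.

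Foxp3 counts were also uncertain in origin. In the GENCODE M21 annotation the gene overlaps Ppp1r3f, Ccdc22 and the transcript Gm36995 on the other strand and the long noncoding RNA Flicr on its own strand. The estimated counts of Foxp3 were not whole in 5 of 6 libraries (to within 1e-06). Ccdc22 had 170.4 to 266.1 counts, Ppp1r3f 24.4 to 61.5 and Gm36995 23.8 to 67.4, and each outnumbered Foxp3 in every library. Flicr had 2.05 to 5. The sources used here do not give the use of strand in counting, so reads of these genes may not be told apart.

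**Figure D1:**
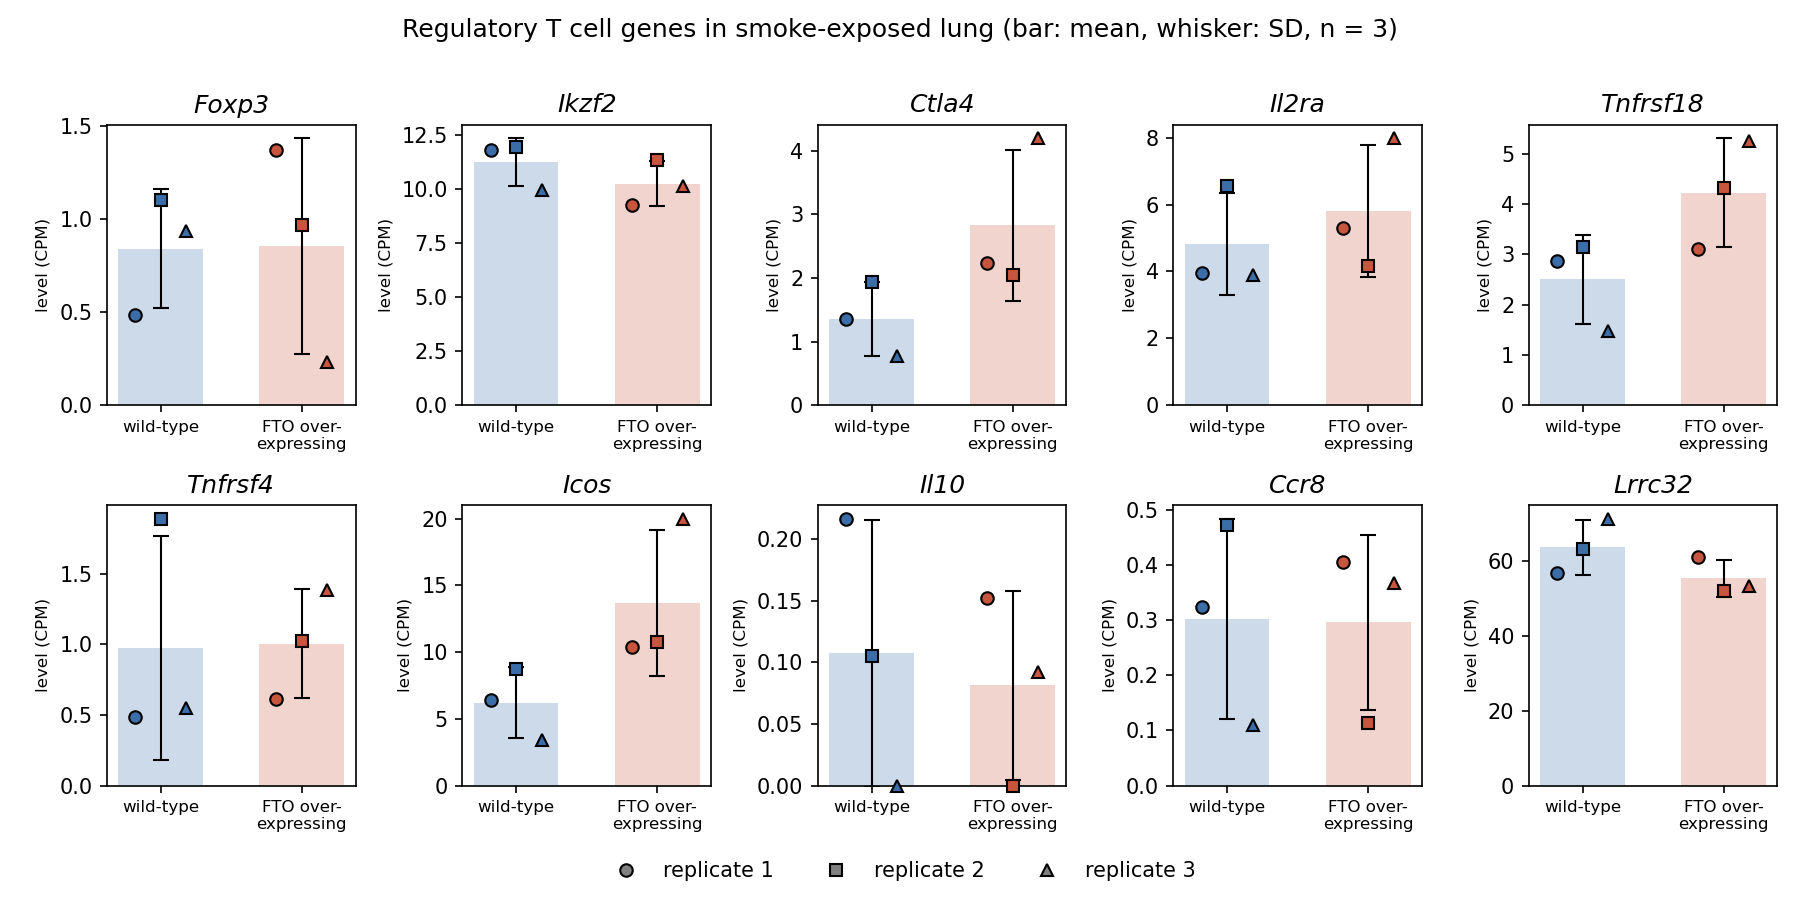
Level of each of the 10 genes in CPM (vertical axes, linear, each from 0) by group; symbols are the 3 libraries of a group, bars the mean and whiskers the SD (cut at 0 for Il10). Icos and Ctla4 are the panels in which the groups do not overlap, and overexpressing replicate 3 is the top symbol for Icos, Ctla4, Il2ra and Tnfrsf18 and the bottom one for Foxp3.

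Ikzf2 encodes Helios, an Ikaros-family factor of many regulatory T cells that other lung cells also express. Its level was 11.8, 11.9 and 9.96 CPM in wild-type replicates 1 to 3 and 9.25, 11.3 and 10.1 CPM in overexpressing replicates 1 to 3. The groups overlapped within a narrow range. The fold change was 0.911 (95% interval 0.724 to 1.15; edgeR adjusted p = 0.852), so this interval leaves out a 2-fold change in either direction. The CD3 genes, by comparison, had fitted fold changes of 3.27 to 3.73 in the same lungs.

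Icos and Ctla4, which encode receptors of the CD28 family, were the members with the largest differences. Icos, which encodes the inducible costimulator, was at 6.45, 8.72 and 3.41 CPM in wild-type replicates 1 to 3 and at 10.4, 10.7 and 20.01 CPM in the overexpressing ones. Overexpressing replicate 3 was far above the other libraries, and the lowest overexpressing library stood above the highest wild-type one. The fold change was 2.21 (95% interval 1.20 to 4.09; edgeR adjusted p = 0.379), and the unadjusted edgeR p was 0.0177. Ctla4, which encodes the inhibitory receptor that competes with CD28 for CD80 and CD86, had the same order of libraries at the extremes: 1.35, 1.94 and 0.770 CPM against 2.24, 2.05 and 4.20 CPM. Again the groups did not overlap, though wild-type replicate 2 and overexpressing replicate 2 lay next to each other. The fold change was 2.08 (95% interval 1.05 to 4.12; edgeR adjusted p = 0.491), and the unadjusted edgeR p was 0.0381. Of all genes tested, 7.96% had all overexpressing libraries above all wild-type ones, as 2 of the 8 members did, and 6.90% had them all below, as 0 members did.

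Both values leaned on overexpressing replicate 3. Without it the log2 fold change was 0.77 for Icos and 0.65 for Ctla4, against 1.15 and 1.06 with all libraries, and the unadjusted edgeR p was 0.0727 and 0.168. The unadjusted p of Ctla4 was also above 0.05 without wild-type replicate 1 (0.0808) or wild-type replicate 3 (0.104). That of Icos stayed under 0.05 without any single one of the other 5 libraries. Ctla4 and Icos lie next to each other on chromosome 1, with Cd28, the activating receptor of the family, on the other side of Ctla4. Cd28 was at 13.5, 14.0 and 8.25 CPM in wild-type and 19.9, 27.0 and 47.4 CPM in overexpressing lungs, 2.64-fold higher without passing adjustment (edgeR adjusted p = 0.208). The 3 neighbours shared wild-type replicate 3 as their lowest library and overexpressing replicate 3 as their highest. Cd3d, Cd3e, Cd3g and Cd4 had the same lowest and highest libraries, so this order was not particular to the 3 neighbours.

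Neither receptor of the tumour necrosis factor family passed the test, and the difference between the pair was not tested. Tnfrsf18, which encodes GITR, was at 2.87, 3.15 and 1.49 CPM in wild-type and 3.10, 4.32 and 5.26 CPM in overexpressing replicates 1 to 3. The groups overlapped by a hair, since overexpressing replicate 1 lay just below wild-type replicate 2. The fold change was 1.69 (95% interval 0.982 to 2.90; edgeR adjusted p = 0.551), and the unadjusted edgeR p was 0.0562. Tnfrsf18 overlaps the antisense transcript Gm16008, which had 7.14 to 25.8 estimated counts, and its own counts were not whole in 5 of 6 libraries. Tnfrsf4, which encodes the costimulator OX40 and lies beside Tnfrsf18 on chromosome 4, was at 0.488, 1.89 and 0.550 CPM against 0.610, 1.02 and 1.38 CPM. Wild-type replicate 2 was the highest of the 6, and the groups overlapped. The fold change of 1.03 had a wide 95% interval, 0.400 to 2.65 (edgeR adjusted p = 0.991).

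Il2ra encodes CD25, the chain that gives the interleukin-2 receptor its high affinity. It was at 3.96, 6.57 and 3.91 CPM in wild-type and 5.28, 4.15 and 7.98 CPM in overexpressing lungs. The groups overlapped, and overexpressing replicate 3 was again the highest library. The fold change was 1.21 (95% interval 0.731 to 2.00; edgeR adjusted p = 0.861), and without that replicate the log2 value was -0.028. Il2rb, the signalling chain that cytotoxic and NK cells carry in large amounts, was at 17.6, 15.4 and 11.7 CPM against 30.2, 37.2 and 68.2 CPM. It was 3.04-fold higher with no overlap between groups (edgeR adjusted p = 0.127).

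The remaining members were at opposite ends of the range of counts. Il10, the cytokine, had 4, 2 and 0 counts in wild-type and 3, 0 and 2 in overexpressing replicates 1 to 3. Taking 3 counts as the limit that a count of 0 allows, levels of up to 0.165 CPM in wild-type replicate 3 and 0.171 CPM in overexpressing replicate 2 remain possible; the upper bounds of the two-sided exact Poisson interval are 0.203 and 0.210 CPM. Ccr8, a chemokine receptor of tissue regulatory T cells and type 2 helper cells, had 6, 9 and 2 counts against 8, 2 and 8. No difference was detected in either gene, and the fit with no filter gave wide 95% intervals for the fold change, 0.130 to 4.84 for Il10 and 0.337 to 2.93 for Ccr8.

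Lrrc32 encodes GARP, which anchors latent TGF-beta on activated regulatory T cells, platelets and endothelium. It was at 56.7, 63.2 and 71.3 CPM in wild-type and 61.1, 51.9 and 53.2 CPM in overexpressing lungs. The groups overlapped through overexpressing replicate 1 and wild-type replicate 1. The fold change was 0.870 (95% interval 0.730 to 1.04; edgeR adjusted p = 0.644). The fold changes of endothelial markers were below 1 as well: their summed level was 4290 to 4491 CPM in wild-type and 3765 to 4185 CPM in overexpressing lungs, with 10 of 10 members below 1 and a median log2 value of -0.14. 0 of the 10 passed adjustment. 2 were lower with groups that did not overlap, beside 6.90% of all genes tested. 3 were lower at an edgeR p under 0.05, beside 3.67% of all genes tested. Egfl7 had the smallest p of the list, at 0.741-fold (edgeR adjusted p = 0.155), followed by Vwf at 0.817-fold (edgeR adjusted p = 0.420). Platelet markers did not separate the groups, at 132.7 to 177.0 CPM and 116.0 to 209.3 CPM in sum. The part of endothelium in the level of Lrrc32 was not tested.

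Per kilobase of exon in GENCODE M21, the members spanned a wide range in wild-type lungs. Lrrc32 was highest, at a mean of 13.6 CPM per kilobase (range 12.1 to 15.2 over 3 libraries), and no other member reached its range. Then came Icos at 1.81, Tnfrsf18 at 1.64, Ikzf2 at 0.967, Il2ra at 0.842, Tnfrsf4 at 0.715 and Ctla4 at 0.582. Ccr8 followed at 0.258, Foxp3 at 0.184 and Il10 at 0.0819. From Icos downward each gene's range over the wild-type libraries overlapped that of the next, so the order of neighbours is not fixed by these data. In overexpressing lungs the order began with Lrrc32 (11.8), Icos (4.00), Tnfrsf18 (2.77) and Ctla4 (1.21), so that Ctla4 stood above Il2ra (1.02), Ikzf2 (0.881) and Tnfrsf4 (0.737) on this scale, with overlapping ranges.

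**Figure D2:**
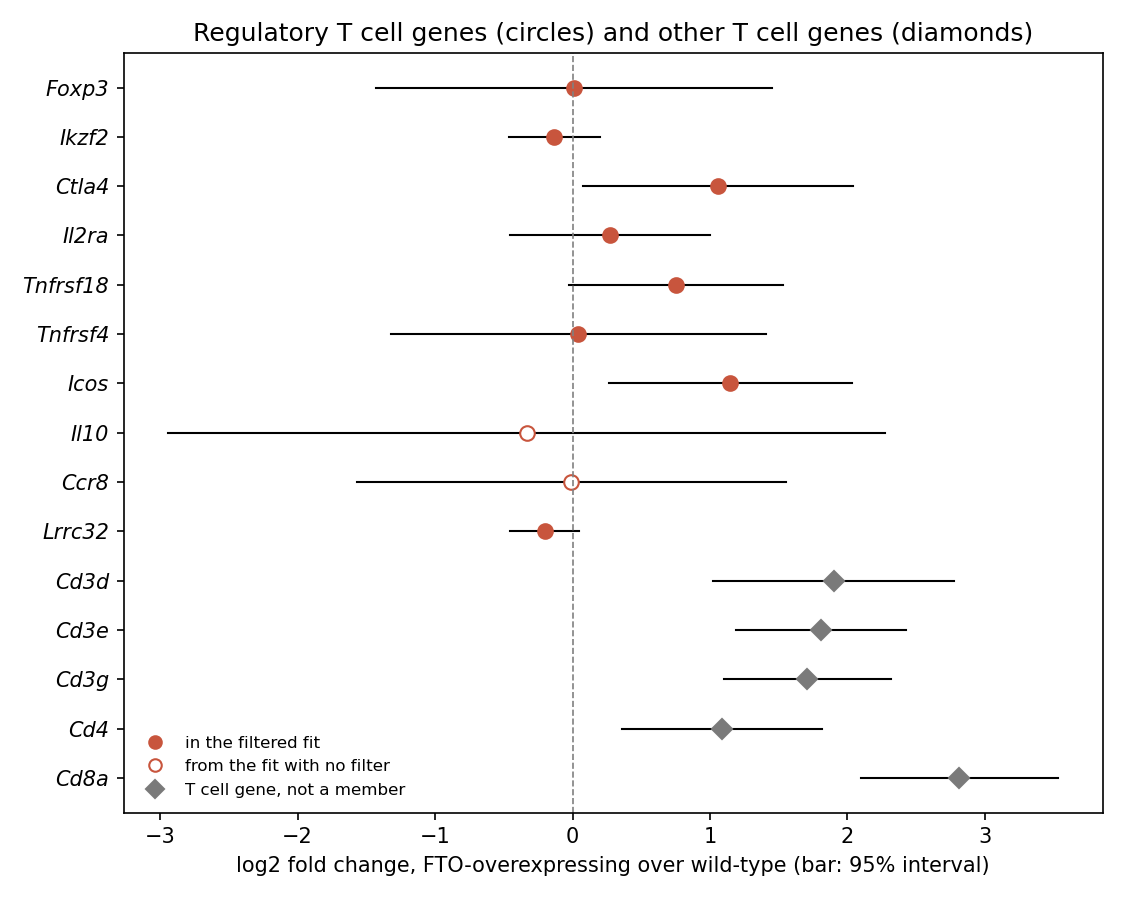
Fitted log2 fold change of FTO-overexpressing over wild-type lungs (horizontal axis) with 95% intervals for the 10 members (circles) and 5 other T cell genes (diamonds); open circles come from the fit with no filter on low counts. The intervals of Icos and Ctla4 lie above 0, that of Foxp3 runs from -1.43 to 1.45, and the points of Cd3d, Cd3e, Cd3g and Cd8a lie to the right of every member.

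The T cell compartment in these lungs was the setting for the members. Cd3e, a subunit of the T cell receptor complex, was at 9.59, 9.14 and 8.25 CPM in wild-type and 21.0, 28.3 and 45.1 CPM in overexpressing lungs. All 12 T cell markers were higher with no overlap between groups, as were 7.96% of all genes tested. Their summed level was 122.4 to 159.4 CPM against 314.4 to 659.3 CPM. Only Lck among them passed adjustment (4.89-fold, edgeR adjusted p = 0.0300), as 0.0942% of all genes tested did. Cd4, the co-receptor of helper and regulatory T cells, was at 14.4, 18.0 and 8.47 CPM against 26.1, 20.9 and 39.7 CPM, 2.13-fold higher (edgeR adjusted p = 0.282). Cd8a, the co-receptor of cytotoxic T cells, rose 7.03-fold (edgeR adjusted p = 0.0300). The calls of Lck and Cd8a were lost without any 1 wild-type library or overexpressing replicate 2 and with limma-voom, and that of Cd8a also without overexpressing replicate 3 (adjusted p of 0.0543 to 0.172 over these edgeR and limma fits). The summed level of 10 CD8 and cytotoxic markers was 40.7 to 79.2 CPM against 337.5 to 810.3 CPM, and that of 10 cell cycle genes 82.4 to 142.5 CPM against 199.8 to 372.2 CPM. The 8 CD4 helper markers overlapped in sum (185.3 to 282.3 CPM against 252.1 to 317.5 CPM). Of 6 thymocyte markers, Rag2 and Ptcra had 0 counts in all 6 libraries and Rag1, Dntt and Arpp21 stayed under 0.5 CPM. Cd1d1, which other cells also express, was at 12.8 to 13.9 CPM in wild-type and 14.2 to 15.2 CPM in overexpressing lungs (1.099-fold, edgeR adjusted p = 0.773). The part of T cell number in the levels of Icos, Ctla4 and Tnfrsf18 was not tested.

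Set against the mean log2 level of Cd3d, Cd3e and Cd3g in the same library, all 10 members were lower in overexpressing lungs, as were 99.2% of all genes tested, and 6 had groups that did not overlap. Most genes did the same: 92.4% were lower without overlap on this scale, since the CD3 genes themselves were 1.73 higher on the log2 scale. The median difference was -1.61 for the members and -1.73 for all genes. Icos and Ctla4 came nearest to moving with CD3, with differences of -0.56 (exact permutation p = 0.2) and -0.67 (exact permutation p = 0.1), followed by Tnfrsf18 at -0.95 (exact permutation p = 0.1). The tests were two-sided, 10 were run, and 0.1 is the smallest p that 3 against 3 libraries allow. With Cd4 alone as the reference the difference of Icos was 0.074 (exact permutation p = 0.6) and that of Ctla4 -0.038 (exact permutation p = 0.8), so both lay near the helper co-receptor gene. Foxp3 had a difference of -1.95 from CD3, with overlapping groups (exact permutation p = 0.2), and the value was -0.89 without overexpressing replicate 3 and -2.68 without overexpressing replicate 1.

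**Figure D3:**
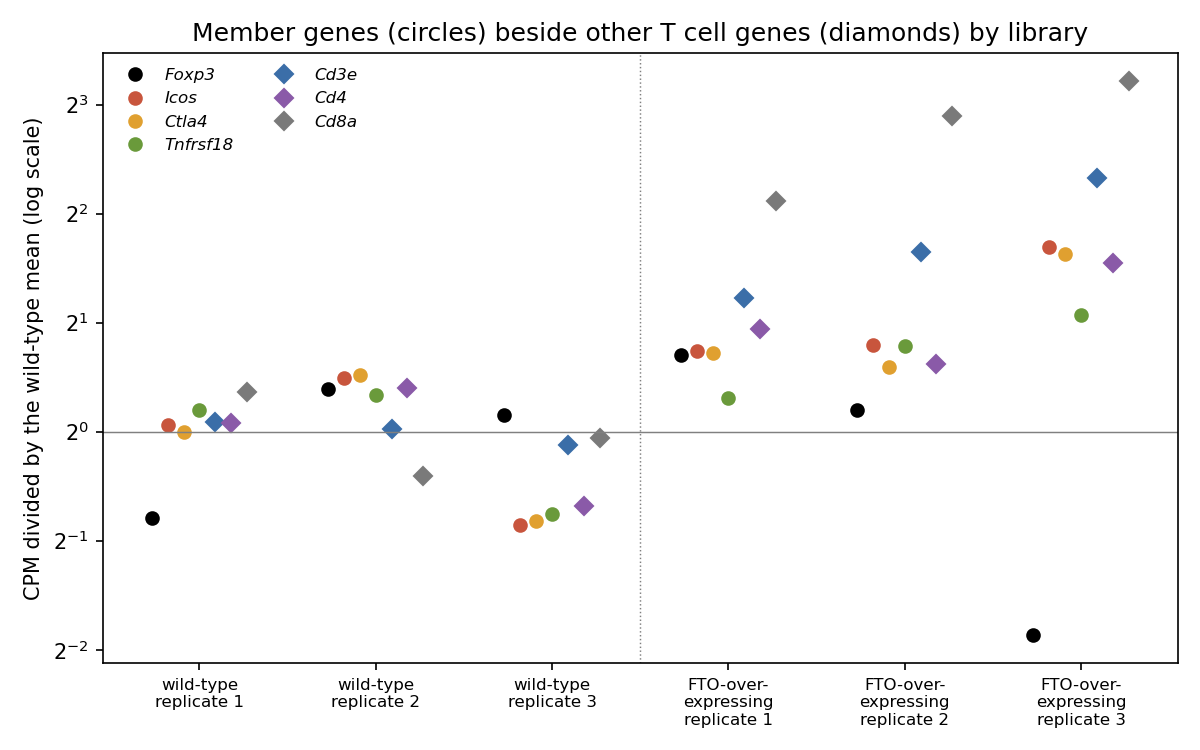
Level of each gene divided by its wild-type mean (vertical axis, log scale) in each of the 6 libraries; circles are Foxp3, Icos, Ctla4 and Tnfrsf18 and diamonds Cd3e, Cd4 and Cd8a. In overexpressing replicate 3 Icos and Ctla4 sit beside Cd4, below Cd3e and Cd8a, while Foxp3 is at its lowest.

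The ratio of Foxp3 to the co-receptor genes was examined in each library. The log2 ratio of Foxp3 to Cd8a was -4.62, -2.72 and -3.29 in wild-type and -4.93, -6.20 and -8.48 in overexpressing replicates 1 to 3. The means differed by -2.99 (two-sided exact permutation p = 0.1, the smallest possible; adjusted over the 2 ratios p = 0.2), and by -2.02 (exact permutation p = 0.2) without overexpressing replicate 3. This says little of Foxp3 itself: against Cd8a the median difference of all genes was -2.77, and in 97.9% of genes every overexpressing library lay below every wild-type one, as for Foxp3. The ratio to Cd4 was -4.81, -3.99 and -3.14 against -4.22, -4.40 and -7.28. Here the groups overlapped, and the difference of -1.32 (two-sided exact permutation p = 0.4, adjusted p = 0.4) lay beside a median of -1.096 for all genes; without overexpressing replicate 3 it was -0.33 (exact permutation p = 0.7). The 5 Foxp3 counts of that library bound how well its ratios are known.

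Of 18 transcription factors linked to regulatory T cells, all tested, 0 passed adjustment. 6 were higher and 1 lower at an edgeR p under 0.05, beside 5.77% and 3.67% of all genes tested. The median log2 fold change was 0.18, against 0.0069 for all genes tested and 1.70 for the T cell markers. The lists were not tested against each other. The smallest p belonged to Id2, a helix-loop-helix inhibitor of effector lymphocytes and innate lymphoid cells (1.67-fold, edgeR adjusted p = 0.0746), and Satb1, a chromatin organiser of T cells that FOXP3 represses (1.70-fold, edgeR adjusted p = 0.130). Id2 was at 82.3, 86.2 and 73.4 CPM against 123.3, 128.8 and 151.8 CPM, and Satb1 at 19.5, 17.1 and 15.7 CPM against 25.9, 27.2 and 35.9 CPM. In both genes every overexpressing library lay above every wild-type one, as in 7.96% of all genes tested. Both were picked for their small p, so this separation adds nothing to it.

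Of 19 effector and surface genes linked to regulatory T cells, 18 were tested and 1 passed adjustment. This was Klrg1, a receptor of terminal effector T cells and NK cells as well as of some regulatory T cells, at 1.68, 1.05 and 1.71 CPM against 11.9, 13.4 and 23.8 CPM (11.1-fold, edgeR adjusted p = 0.0244). 4 of the 18, Klrg1 included, were higher and 2 lower at an edgeR p under 0.05, beside 5.77% and 3.67% of all genes tested. The median log2 fold change was 0.075. The call of Klrg1 was lost without any 1 of the 3 wild-type libraries or overexpressing replicate 2 (edgeR adjusted p of 0.0543 to 0.155). The same happened with limma-voom (adjusted p = 0.116). The log2 fold change of Klrg1 stayed between 3.09 and 3.65 without any 1 library. It stood in the same libraries as the cytotoxic markers, whose part in it was not tested.

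Interleukin-2 signalling genes and the members' partners gave 0 adjusted calls. Of 10 signalling genes tested out of 11, 4 were higher and 1 lower at an edgeR p under 0.05. Among all genes tested the shares were 5.77% and 3.67%. The signalling genes had a median log2 fold change of 0.24. Il2rb had the smallest p and Jak1, a kinase of the receptor, the next (1.25-fold, edgeR adjusted p = 0.228). Of 12 ligands and partners, 9 were tested, 1 was higher and 0 were lower at that p, and the median was 0.11. The 1 was Cd28, and Cd80, a ligand of CTLA-4 and CD28, came next at 1.24-fold (95% interval 0.856 to 1.78; edgeR adjusted p = 0.766). Among the groups of other cells that share member genes, type 2 innate lymphoid markers had a median log2 fold change of -0.16 over 6 tested, with 1 higher and 1 lower at an edgeR p under 0.05 (Gata3 and Areg). Their summed level overlapped between groups, at 23.5 to 28.9 CPM and 24.3 to 29.4 CPM, with Il13 and Il5 under 0.5 CPM in every library. NK markers, which share Gzma, Prf1 and Eomes with the cytotoxic list, had a median of 1.52 over 9 tested. Of these, 6 were higher and 0 lower at an edgeR p under 0.05, and 0 passed adjustment. Their summed level was 20.9 to 46.1 CPM against 128.9 to 233.2 CPM. The part of these cells in the levels of the members was not tested.

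**Figure D4:**
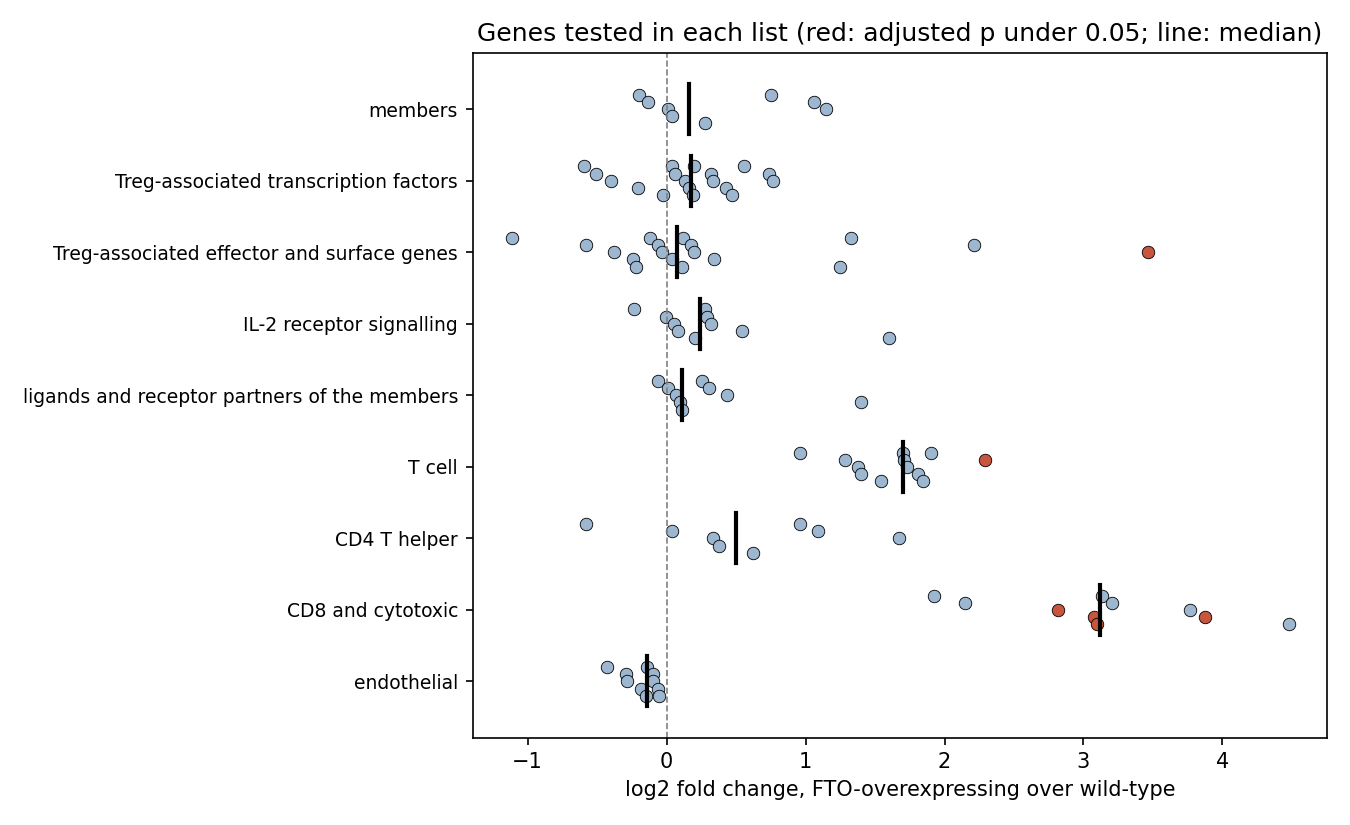
Fitted log2 fold change (horizontal axis) of every gene tested in 9 lists; each point is a gene, red points passed an edgeR adjusted p of 0.05 and black lines are medians. The 4 lists linked to regulatory T cells and their partners have medians between 0.075 and 0.24, and the members 0.16. The medians of the CD4 T helper (0.50), T cell (1.70) and CD8 and cytotoxic (3.12) markers are higher. That of the endothelial markers is -0.14.

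The genes whose log2 levels followed the pattern of Foxp3 most closely over the 6 libraries were Zfp36, Nme5, Clec4g, Gorab and Polb. They were ranked among 15674 genes of at least 1 CPM on average. The ranking does not measure likeness of level or of the size of change. Their Pearson r with Foxp3 was 0.973 to 0.993, given as a description without a test, since many genes were compared over only 6 libraries. None of the 5 belongs to the T cell lists. Zfp36 was at 65.9, 71.1 and 70.7 CPM in wild-type and 74.2, 70.3 and 59.0 CPM in overexpressing replicates 1 to 3, and shared with Foxp3 its highest library (overexpressing replicate 1) and its lowest (overexpressing replicate 3).

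Across the series, libraries held 16731850 to 21444907 counts. Fto was at 66.2 to 69.9 CPM in wild-type and 650.1 to 740.8 CPM in overexpressing libraries, as labelled. 16 of 16989 genes passed an edgeR adjusted p of 0.05, 13 higher and 3 lower. Overexpressing replicate 3 had the highest T cell level and the lowest share of haemoglobin counts (0.368%, against 0.856% to 3.27% in the other 5).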

How the data were processed

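The deposited values are expected counts, estimates of the reads of each gene with no scaling for depth. fastp, HISAT2 and StringTie are named in the submitters' processing notes, without versions; the sources used here do not give the build, annotation or counting program. Between 9.66% and 10.3% of rows in a library were not whole. Rows without a symbol (525) took 0.119% to 0.143% of counts; they carry a gene identifier and stayed in the fit. Per the labels' protocols, libraries were stranded and selected for polyadenylated RNA.

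Values were rounded and fitted in R 4.3.3 with edgeR 4.0.16 (filterByExpr, TMM, quasi-likelihood F-test, group as the only term), with Benjamini-Hochberg adjustment over 16989 genes and a threshold of 0.05. Intervals are 95% and derive from the fold change and its F statistic. CPM are on TMM-scaled library sizes; log2 ratios use a prior count of 0.5. Poisson intervals and the limit of 3 counts for a count of 0 cover counting error only. Alternatives used limma 3.58.1 and DESeq2 1.42.0. The script was tested on simulated data.

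Members and lists were chosen with earlier results of these data known. All members were named; from other lists, genes past adjustment or else the 2 of smallest p. Cd4, Cd8a and the CD3 genes were named as references, and the 5 genes most like Foxp3 by Pearson r. Fold changes of other genes set beside them (Gata3, Areg) and of marker lists are descriptions. Same-numbered libraries were not treated as pairs.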

Additional observations from a re-analysis of the deposited data

How the results depend on the processing

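No member passed adjustment under any alternative run (RLE or upper-quartile scaling, no filter or a stricter one, a replicate block, abundant blood, antibody and mitochondrial genes left out, limma-voom, DESeq2, a threshold of 0.1, each library left out). The count over all genes, 16, was 287 with no filter, 31 without haemoglobin, immunoglobulin and mitochondrial genes, 5 with limma-voom, 423 with DESeq2, 70 at a threshold of 0.1 and 2 with the replicate number as a block. It ran from 1 to 49 when 1 library was left out, at 1 with overexpressing replicate 2 or either of wild-type replicates 2 and 3 left out, 6 without overexpressing replicate 3 and 49 without overexpressing replicate 1; the cause was not tested. Deviations of same-numbered libraries correlated at 0.10, -0.28 and -0.28 over genes, so the numbers were not taken to pair them. With the block the unadjusted p of Ctla4 was 0.0878, leaving 1 member (Icos) under 0.05, and the adjusted p of Klrg1, Lck and Cd8a was 0.0865, 0.121 and 0.121.

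The sign of Foxp3 turned with the replicate block (-0.13, log2 scale) and limma-voom (-0.27), and when wild-type replicate 1 (-0.26), overexpressing replicate 1 (-0.53) or overexpressing replicate 2 (-0.090) was left out, within a range of -0.53 to 0.47. Il2ra turned without overexpressing replicate 3 (-0.028; range -0.028 to 0.57). Tnfrsf4 turned when wild-type replicate 1 (-0.27) or 3 (-0.24) was left out and likewise for overexpressing replicate 3 (-0.27), in a range up to 0.95 without wild-type replicate 2. Ikzf2, Ctla4, Tnfrsf18, Icos and Lrrc32 kept their direction under all alternatives; Il10 and Ccr8 were fitted only with no filter. The number of members below CD3 without overlap was 6, where 92.4% of all genes tested did the same. It was 5 with Cd3e alone, 8 with a prior count of 2 and 3 with Cd4 as reference. It ran from 6 to 10 without 1 library, 10 without overexpressing replicate 1. Paired within replicate numbers, 9 members were lower in all pairs. The share of all genes was not computed for these alternatives, so their counts say nothing particular of the members. The difference of Icos turned to 0.074 with Cd4 as reference. Foxp3, Tnfrsf4, Il10 and Ccr8 rest on 36 counts or fewer in every library.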
